A study of Rattus norvegicus with 47 samples.

Results

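Nitric oxide and arginine metabolism was followed in rat blood through 9 genes, Nos2, Nos3, Gch1, Ass1, Slc7a1, Slc7a2, Arg1, Arg2 and Odc1, out of 20935 gene symbols on the array. The genes were chosen by their symbol, with earlier results of these data known, and each of the 9 symbols was carried by 1 probe set. Blood came from 8 male spontaneously hypertensive rats (SHR), 16 weeks old, before and at 1, 2, 3, 6 and 24 hours post occlusion of the middle cerebral artery (MCA) by a thread. All 8 rats had the occlusion, which was followed by reperfusion, and there was no sham group, so that stroke, surgery, anesthesia and time of day cannot be told apart. The reperfusion, under renewed anesthesia, fell between the 1 and 2 h samples, so the step from 1 to 2 h spans it. The whole blood cell pellet was used, with red cells, platelets and leukocytes together, which leaves fewer cells of a type and less RNA per cell indistinguishable. Samples up to 6 h were drawn from the tail vein and the 24 h sample from the heart after an overdose of anesthetic, so the site of collection and the time changed together between 6 and 24 h. Each time point had 8 arrays, apart from 6 h with 7.

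Nitric oxide is made from arginine by the nitric oxide synthases. Nos2 is the inducible synthase of activated leukocytes, and Nos3 is the synthase best known from endothelium. All synthases need tetrahydrobiopterin, whose synthesis starts with GTP cyclohydrolase 1, the product of Gch1. Ass1 encodes argininosuccinate synthase, which with argininosuccinate lyase turns the citrulline left by the synthases back into arginine. Slc7a1 and Slc7a2 encode carriers that bring arginine into the cell. The arginases Arg1, of the cytosol, and Arg2, of mitochondria, compete for the same arginine and give ornithine, from which ornithine decarboxylase, encoded by Odc1, makes the first of the polyamines.

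Values are the authors' log2 mean signal of a probe set at a time point, followed where given by the authors' SD over the arrays of that time point. A change is the mean at a later time minus the mean at an earlier time, so a change of 1 is 2-fold. Each change was tested with limma's moderated test, worked out from the means and SDs of the authors and their numbers of arrays, and its p-value was adjusted over all 27596 probe sets. Called genes have an adjusted p below 0.05. The same rats were sampled over time, but the samples were not paired by rat here. The samples of a rat, up to 6, thus count as independent arrays and the overlap of single samples between time points is not given. The effect of pairing on the SEs and p-values was not tested. Over all probe sets the median change from 0 h lay between 0.04 and 0.07 and the median of the authors' SDs between 0.14 and 0.16. The blood label was borne out by its own markers, since the hemoglobin genes Hbb and Hba1 had means of 13.50 and 13.60 at 0 h, beside a median of 6.61 over all probe sets. All 9 genes had a mean signal above that of the lowest 25% of probe sets, which ended at 5.63.

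The largest change from 0 h was a rise in 8 of the 9 genes and a fall in 1, Slc7a1. Nos2, Ass1, Slc7a2 and Arg2 rose and were highest at 3 or 6 h, while Gch1 and Odc1 were highest at 24 h. From 6 to 24 h Nos2, Ass1 and Arg2 fell, and the difference of -0.32 in Slc7a2 was not called (adjusted p = 0.128). Slc7a1 was lowest at 6 h, Nos3 moved by at most 0.18, and Arg1 was past the threshold at no time. By the F-test over the 6 time points 8 of the 9 genes had an adjusted p below 0.05, against 55.5% of all probe sets, and the exception was Arg1 with an adjusted p of 0.133. At the study's stricter p of 5e-07, which 13.5% of all probe sets passed here, 4 genes remained, and these were Nos2, Arg2, Ass1 and Gch1. These p-values are from the F-test used here and not from that of the study, whose own list at this threshold is shorter.

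**Figure D1:**
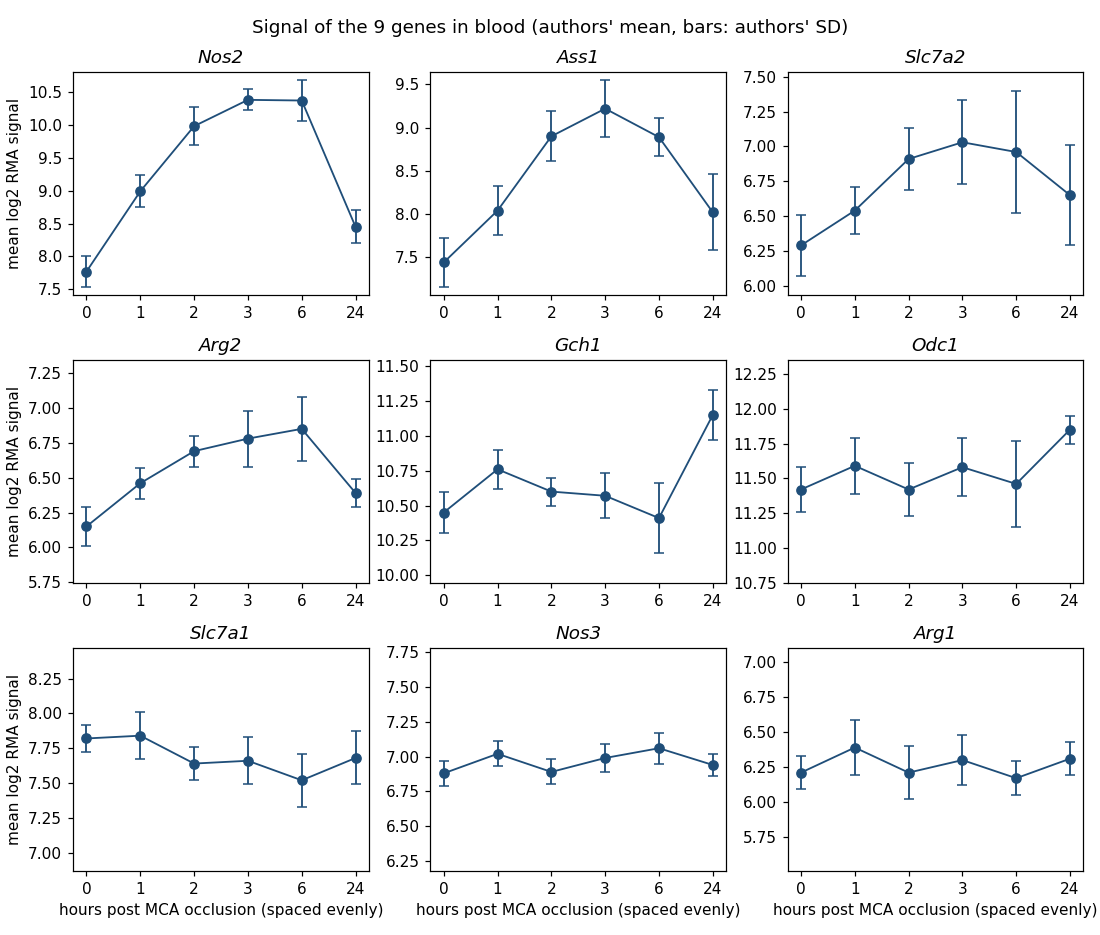
Authors' mean log2 RMA signal (vertical axis, a scale of its own for each gene) of the 9 genes at 0, 1, 2, 3, 6 and 24 hours post MCA occlusion (horizontal axis, spaced evenly), with bars for the authors' SD over 8 arrays, or 7 at 6 h. Nos2, Ass1, Slc7a2 and Arg2 are highest at 3 or 6 h, and Gch1 and Odc1 are highest at 24 h.

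Promoters are shown for a gene of each course: Ass1, which rose early, Gch1, which was highest at 24 h, and Slc7a1, which fell. RefSeq's promoter table on GRCr8, a later build than the rn5 of the array's annotation, held 5 of the 9 genes, Nos3, Ass1, Gch1, Slc7a1 and Odc1, and not Nos2, Arg1, Arg2 or Slc7a2. The 250 bases before the start given there are printed, and capitals mark matches, on either strand, to 9 motifs. These were the TATA element TATAA, the CCAAT box, the GC box with the letters GGGCGG, the kB element as GGG and TTTCC with any pair of bases between, TTNNGNAA (C/EBP), TGANTCA (AP-1), TTCNNNGAA (GAS), CACGTG (E box) and TGACG (the core of the cAMP response element). GRCr8 has Ass1 on the plus strand, while the array's rn5 annotation has it on the minus strand. The Ass1 window lies at chr3:35149480-35149729 on the plus strand, that of Gch1 at chr15:22917413-22917662 on the minus strand and that of Slc7a1 at chr12:11664238-11664487 on the plus strand.
Ass1: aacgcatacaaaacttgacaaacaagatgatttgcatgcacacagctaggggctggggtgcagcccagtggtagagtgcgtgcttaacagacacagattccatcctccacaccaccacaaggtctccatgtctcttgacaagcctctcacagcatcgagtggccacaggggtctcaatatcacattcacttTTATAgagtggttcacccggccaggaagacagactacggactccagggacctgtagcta
Gch1: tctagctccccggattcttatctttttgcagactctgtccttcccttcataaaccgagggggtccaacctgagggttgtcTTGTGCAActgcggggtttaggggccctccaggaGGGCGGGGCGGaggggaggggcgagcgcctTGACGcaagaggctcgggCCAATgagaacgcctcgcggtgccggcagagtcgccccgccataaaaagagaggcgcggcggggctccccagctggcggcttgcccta
Slc7a1: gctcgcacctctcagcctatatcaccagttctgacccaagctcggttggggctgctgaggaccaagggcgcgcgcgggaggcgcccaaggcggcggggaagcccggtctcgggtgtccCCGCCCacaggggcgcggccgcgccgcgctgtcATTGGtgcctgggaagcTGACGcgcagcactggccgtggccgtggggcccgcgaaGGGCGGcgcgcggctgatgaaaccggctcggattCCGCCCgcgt

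The windows differ in their base composition and matches. G and C made up 51.2% of the Ass1 window, 64.4% of that of Gch1 and 73.2% of that of Slc7a1. In the Ass1 window the only match was 1 TATA element, a motif that 24% of all 33469 promoters of this length hold. Gch1 had a CCAAT box (34% of promoters) that begins 88 bases before the start, 2 overlapping GC boxes (30.5%), a C/EBP match (37.2%) and a TGACG match (18.2%). Slc7a1 had 3 GC boxes, 1 CCAAT box and 1 TGACG match. Odc1 had 5 GC boxes, 2 TGACG matches and a TATA element that begins 32 bases before the start, and Nos3 had 1 GC box alone. The kB, AP-1, GAS and E box motifs, held by 1.3%, 6.34%, 7.67% and 5.59% of promoters, had no match in these 5 windows. A match is a description of letters and not a site.

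At 1, 2, 3 and 6 h Nos2 had the largest change of the 9 genes. In rn5 its place is chr10:65421659-65456951 (minus strand). The authors' means at 0, 1, 2, 3, 6 and 24 h were 7.77 ± 0.23, 8.99 ± 0.24, 9.98 ± 0.29, 10.38 ± 0.16, 10.37 ± 0.31 and 8.45 ± 0.25 (SD, n = 8 or 7). The means at 2, 3 and 6 h stood more than 6 of their SDs above that at 0 h. The change from 0 h was 1.22 at 1 h (SE 0.12, adjusted p = 3.47e-11) and 2.61 at 3 h (SE 0.12, adjusted p = 2.28e-22), the latter a 6.11-fold rise. Only 7 of the 27596 probe sets changed more in size at 3 h, and only 3 had a lower p in the F-test.

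The course of Nos2 was steep at first, then flat, then falling. It rose by 0.99 between 1 and 2 h (adjusted p = 9.55e-08) and by 0.40 between 2 and 3 h (adjusted p = 0.0456), and the latter step was no longer called when the means of each time point were centred on their median (adjusted p = 0.0526) or with the ordinary variance of the probe set (0.0614). Between 3 and 6 h the difference was -0.01, with a 95% confidence interval from -0.26 to 0.23. From 6 to 24 h Nos2 fell by 1.92 on the log2 scale (SE 0.12, adjusted p = 1.95e-16), the 17th largest difference in size of all probe sets in that step. At 24 h it was still 0.68 above 0 h (95% confidence interval 0.44 to 0.92, adjusted p = 2.53e-05), which was 25.9% of its largest change.

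Nos3 moved far less than Nos2, and their difference was not itself tested. It is placed at chr4:7333452-7353763 in rn5 (minus strand). In time order the means were 6.88 ± 0.09, 7.02 ± 0.09, 6.89 ± 0.09, 6.99 ± 0.10, 7.06 ± 0.11 and 6.94 ± 0.08 (SD). These means stayed within a range of 0.18, and their SDs were among the smallest of the 9 genes. Nos3 was called higher at 6 h, by 0.18 (SE 0.05, adjusted p = 0.00449), a 1.13-fold difference. The change of 0.13 at 1 h (adjusted p = 0.0313) was not called after centring (0.09, adjusted p = 0.196), after quantile normalization of the means (0.11, adjusted p = 0.0934) or with the spread of 0 and 1 h alone (adjusted p = 0.0551). The 6 endothelial markers measured had means from 5.32, in Emcn, to 8.23, in Vwf, which platelets also carry. At 1 h 2 of them were called higher and 1 lower, at 2 h 2 higher, at 3 h 3 higher, at 6 h none and at 24 h 2 higher, where 21.7%, 21.7%, 27.3%, 22.5% and 17.4% of all probe sets were higher in time order. Their changes at 6 h ranged from 0.08 to 0.13, the log2 of their summed signal lay between 9.30 and 9.61, and their part in the Nos3 value was not tested. The neuronal synthase Nos1, named here after its values were seen, had means of 6.09 at 0 h and 6.27 at 6 h, a change of 0.18 (adjusted p = 0.00196).

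Ass1 was the other gene with a change above 1. In rn5 its place is chr3:15686778-15735187 (minus strand). From 0 to 24 h the means ran 7.44 ± 0.28, 8.04 ± 0.28, 8.90 ± 0.29, 9.22 ± 0.33, 8.89 ± 0.22 and 8.02 ± 0.44 (SD). The 3 h mean lay more than 4 times the gene's highest SD above that at 0 h. The change was 0.60 at 1 h (SE 0.15, adjusted p = 0.00165), 1.78 at 3 h (SE 0.15, adjusted p = 1.04e-13), a 3.44-fold rise, and 0.58 at 24 h (SE 0.15, adjusted p = 0.00297). Its steepest step was that from 1 to 2 h, which spans the reperfusion, 0.86 (adjusted p = 8.71e-05). The difference from 3 to 6 h was -0.33 (95% confidence interval -0.64 to -0.01, adjusted p = 0.262), and from 6 to 24 h Ass1 fell by 0.88 (adjusted p = 2.59e-05). The authors' SD of 0.44 at 24 h was the highest of this gene. Argininosuccinate lyase, encoded by Asl and acting just after Ass1 in the remaking of arginine, was called higher at all 5 times, by 0.20 at 1 h to 0.34 at 3 h (adjusted p = 3.71e-05 at 3 h), with means of 8.09 at 0 h and 8.43 at 3 h.

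The arginine carriers went opposite ways. Slc7a2, the carrier known to be induced with Nos2 in macrophages, is placed at chr16:54171443-54191773 in rn5 (minus strand). Its means in time order were 6.29 ± 0.22, 6.54 ± 0.17, 6.91 ± 0.22, 7.03 ± 0.30, 6.96 ± 0.44 and 6.65 ± 0.36 (SD). The spread between arrays widened from 1 to 6 h. The change was 0.62 at 2 h (SE 0.14, adjusted p = 3.58e-04) and 0.74 at 3 h (SE 0.14, adjusted p = 2.61e-05), a 1.68-fold rise. Its change of 0.36 at 24 h (adjusted p = 0.0478) was close to the threshold, and was not called after centring (adjusted p = 0.0919), quantile normalization of the means (0.127) or with the ordinary variance (0.0609).

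Slc7a1, the carrier that most cells express, is placed at chr12:10119640-10192908 in rn5 (plus strand). In time order the means were 7.82 ± 0.10, 7.84 ± 0.17, 7.64 ± 0.12, 7.66 ± 0.17, 7.52 ± 0.19 and 7.68 ± 0.19 (SD). Its mean was lower than at 0 h at every time from 2 h on, by most at 6 h. At 24 h the change of -0.15 was not called (adjusted p = 0.147). The fall was called at 6 h (-0.31, SE 0.08, adjusted p = 0.00206), and the changes of -0.18 at 2 h and -0.16 at 3 h were not called (adjusted p = 0.0555 and 0.0798). Centring brought both past the threshold (-0.21 and -0.20, adjusted p = 0.0285 and 0.0344), and quantile normalization of the means reduced them to -0.09 and -0.08 (adjusted p = 0.412 and 0.484) and the fall at 6 h to -0.21 (adjusted p = 0.0424). Slc7a1 and Slc7a2 thus stood at -0.31 and 0.67 at 6 h, and the difference between these changes was not itself tested.

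Of the arginases, Arg2 rose and Arg1 was called at no time. Arg2 is placed at chr6:114998810-115025300 in rn5 (plus strand). From 0 to 24 h the means ran 6.15 ± 0.14, 6.46 ± 0.11, 6.69 ± 0.11, 6.78 ± 0.20, 6.85 ± 0.23 and 6.39 ± 0.10 (SD). The means climbed at each step up to 6 h. The steps from 1 to 2, 2 to 3 and 3 to 6 h were not called (adjusted p = 0.0517, 0.589 and 0.747). The change was 0.31 at 1 h (SE 0.08, adjusted p = 0.00162) and 0.70 at 6 h (SE 0.08, adjusted p = 5.31e-10), a 1.62-fold rise. From 6 to 24 h Arg2 fell by 0.46 (adjusted p = 1.74e-05). The change of 0.24 left at 24 h (adjusted p = 0.0142) was not called after quantile normalization of the means (0.18, adjusted p = 0.0829).

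Arg1, an enzyme of the urea cycle in liver that myeloid cells also carry, is placed at chr1:23005330-23017714 in rn5 (plus strand). Its means in time order were 6.21 ± 0.12, 6.39 ± 0.20, 6.21 ± 0.19, 6.30 ± 0.18, 6.17 ± 0.12 and 6.31 ± 0.12 (SD). Its largest change, 0.17 at 1 h (95% confidence interval 0.02 to 0.33, adjusted p = 0.0772), was smaller than its SD at that time. At 3 and 6 h the intervals ran from -0.07 to 0.25 and from -0.20 to 0.12, which bounds any rise of the Arg1 signal there well under that of Arg2. At 0 h both arginases lay below the median of all probe sets, 6.61, and no detection call was used. The bound is thus on the signal and not on the transcript. The difference between the arginases was not itself tested.

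Gch1 and Odc1 were highest at 24 h. Gch1 is placed at chr15:27876252-27910213 in rn5 (minus strand). In time order the means were 10.45 ± 0.15, 10.76 ± 0.14, 10.60 ± 0.10, 10.57 ± 0.16, 10.41 ± 0.25 and 11.15 ± 0.18 (SD). Gch1 was thus higher at 1 h, back at its starting level at 6 h, and highest at 24 h. The change was 0.31 at 1 h (SE 0.08, adjusted p = 0.00294), -0.04 at 6 h (95% confidence interval -0.22 to 0.13) and 0.70 at 24 h (SE 0.08, adjusted p = 1.22e-08), a 1.62-fold rise. The step from 6 to 24 h was 0.74 (SE 0.09, adjusted p = 2.37e-09). At 3 h, when Nos2 was highest, the change of Gch1 was 0.12 (95% confidence interval -0.05 to 0.28). The regulator Gchfr, whose product restrains GTP cyclohydrolase 1 and which was named after its values were seen, had means of 7.65 at 0 h and 7.17 at 2 h, a fall of 0.48 (adjusted p = 5.82e-04), and was 0.25 lower than at 0 h at 24 h (adjusted p = 0.0843).

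Odc1, the other gene highest at 24 h, is placed at chr6:52565290-52571689 in rn5 (plus strand). From 0 to 24 h the means ran 11.42 ± 0.16, 11.59 ± 0.20, 11.42 ± 0.19, 11.58 ± 0.21, 11.46 ± 0.31 and 11.85 ± 0.10 (SD). The means up to 6 h lay within 0.17 of the starting level. The change was called only at 24 h (0.43, SE 0.10, adjusted p = 7.72e-04), a 1.35-fold rise, and the step from 6 to 24 h was 0.40 (SE 0.10, adjusted p = 0.00308). Without the 24 h samples the F-test of Odc1 had an adjusted p of 0.368, and the other genes called by the F-test were still called. Some platelet and red cell markers were also higher at 1 and 24 h. This was not confined to those times, since 2 platelet markers were called higher at 2 h and 2 at 3 h. Of the erythroid markers 0 were called higher at 2 h and 1 at 3 h. Of the 6 platelet markers measured, 3 were called higher at 1 h, 1 at 6 h and 4 at 24 h, with none lower and median changes of 0.27, 0.07 and 0.28, and the log2 of their summed signal was 14.12 at 0 h and 14.27, 14.13 and 14.30 at those times. The platelet integrin Itga2b had means of 9.49, 9.91, 9.56 and 9.98 at 0, 1, 6 and 24 h. Selp, the marker called at 6 h, was instead highest at 6 h (6.70, 7.02, 8.10 and 7.23), and Pf4, at 13.06 before the occlusion, was called at no time. Of the 8 erythroid markers measured, 3 were called higher at 1 h, 2 lower at 6 h and 3 higher at 24 h, with median changes of 0.10, -0.12 and 0.11, and their summed signal was 15.67 at 0 h and 15.74, 15.61 and 15.77 at those times. Among them Slc4a1, the anion exchanger of red cells, had the largest change at 24 h, with means of 11.94, 12.28, 11.71 and 12.51 at 0, 1, 6 and 24 h, while Hbb and Hba1 changed by at most 0.05 in size at those times. Hbb and Hba1 lay near the highest mean of all probe sets, 13.6, where a change in red cells may not show, and they weigh heavily in the summed signal. At 2 and 3 h Itga2b had means of 9.77 and 9.83, and Slc4a1 had means of 12.11 and 12.07. Over all probe sets 21.7% were called higher at 1 h, 19.3% lower at 6 h and 17.4% higher at 24 h. The part of platelets and red cell precursors in the values of Gch1 and Odc1 was not tested.

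**Figure D2:**
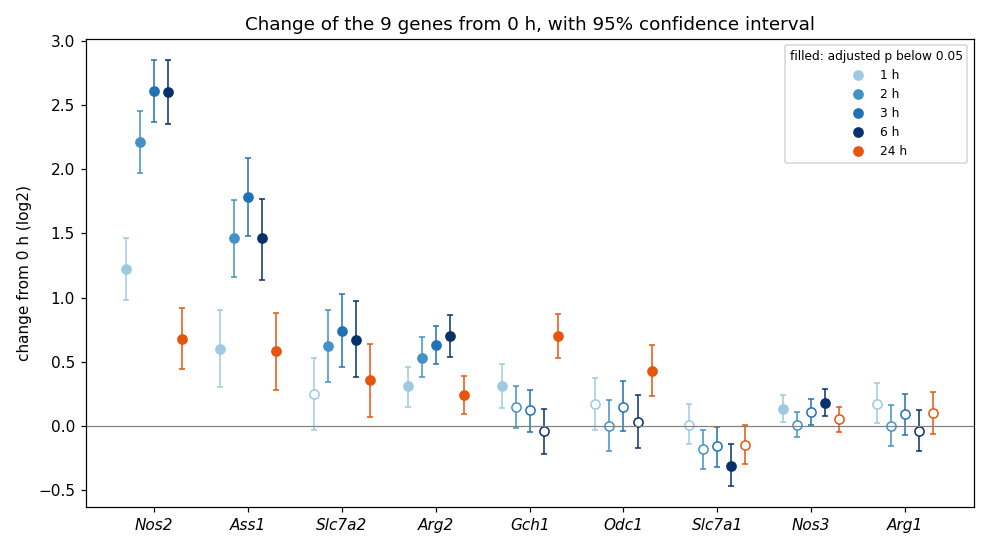
Change of each of the 9 genes from 0 h on the log2 scale (vertical axis) at 1, 2, 3, 6 and 24 h (colours), with bars for the 95% confidence interval of the moderated test; filled points have an adjusted p below 0.05. The changes of Nos2 reach 2.61 at 3 h and those of Ass1 1.78, Gch1 and Odc1 change most at 24 h, and every point of Arg1 is open.

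Counted by time, 5 of the 9 genes (55.6%) were called at 1 h, all higher, where 37.1% of all probe sets were called, 21.7% higher and 15.4% lower. At 2 h the count was 4 (44.4%), all higher, against 40.4% of all probe sets, with 21.7% higher and 18.6% lower. At 3 h it was again 4, all higher, against 46.5%, with 27.3% higher and 19.2% lower. At 6 h 5 genes were called higher and Slc7a1 lower (66.7% in all), against 41.8%, with 22.5% higher and 19.3% lower. At 24 h 6 genes were called, all higher, against 31.2%, with 17.4% higher and 13.9% lower. The shares at 2 and 3 h were thus near that of the whole array, and those at 1, 6 and 24 h were above it. These differences rest on few genes and were not tested, and after quantile normalization of the means 4 genes were called at 24 h. The share of the whole array also takes in probe sets of low signal or without a symbol, unlike the 9 genes. Nos2, Ass1 and Arg2, 3 of the 9 genes (33.3%), were called at all 5 times, as were 15.2% of all probe sets. In time order the median change of the 9 genes was 0.25, 0.15, 0.15, 0.18 and 0.36, beside medians of 0.04 to 0.07 over all probe sets. Between neighbouring time points, 2 genes (Nos2 and Ass1) were called from 1 to 2 h, both higher, where 8.78% of all probe sets were (4.66% higher, 4.11% lower). From 2 to 3 h only Nos2 was called, against 3.53% (1.9% higher, 1.62% lower). From 3 to 6 h limma's moderated test called 0 of the 9 genes and the ordinary test also 0, against 4.78% of all probe sets (2.34% higher, 2.44% lower), and 1 gene, Ass1, had an unadjusted p below 0.05. From 6 to 24 h 5 genes were called, against 18.9% of all probe sets. Nos2, Ass1 and Arg2 fell, as did 8.68% of all probe sets, and Gch1 and Odc1 rose, as did 10.2%.

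The 4 genes that were highest at 3 or 6 h were set to a common scale, on which each reaches its own largest change by construction. At 1 h Nos2 had covered 46.7% of its largest change, Arg2 43.9%, Slc7a2 33.8% and Ass1 33.7%. At 2 h these shares were 84.6% for Nos2, 76.6% for Arg2, 83.2% for Slc7a2 and 81.9% for Ass1. At 6 h Arg2 was at its largest change and Nos2 at 99.5% of its own, with 90.5% for Slc7a2 and 81.7% for Ass1. At 24 h Nos2 kept 25.9%, Ass1 32.5%, Arg2 34.6% and Slc7a2 47.7%. Their folds at the largest change were 6.11 for Nos2, 3.44 for Ass1, 1.68 for Slc7a2 and 1.62 for Arg2. The differences in course between these genes were not tested.

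**Figure D3:**
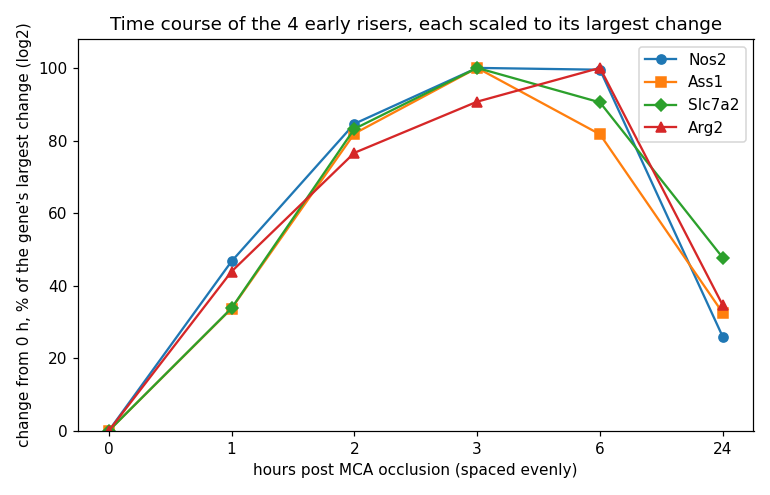
Change from 0 h of Nos2, Ass1, Slc7a2 and Arg2 as a percentage of each gene's own largest change on the log2 scale (vertical axis) against hours post MCA occlusion (horizontal axis, spaced evenly). All 4 reach at least 76.6% of their largest change at 2 h and are at or below 47.7% at 24 h.

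Leukocyte markers moved over the same hours, in which 21.7% to 27.3% of all probe sets were called higher and 15.4% to 19.3% lower up to 6 h, and 17.4% and 13.9% at 24 h. Of 12 neutrophil markers, 11 were called higher at 1 h and 10 at 2, 3 and 6 h, with median changes of 0.82, 1.32, 1.25 and 1.40, and the log2 of their summed signal went from 13.88 at 0 h to 14.83, 15.23, 15.06 and 15.27. At 24 h 6 were higher and 1, Ngp, was lower, with a median change of 0.36 and a summed signal of 14.45. Mmp9, the gelatinase of neutrophil granules, had means of 8.57 at 0 h and 11.32 at 2 h. Of 10 monocyte and macrophage markers, 1 was called higher and 6 lower at 1 h, 4 higher and 5 lower at 3 h, and 1 higher and 4 lower at 24 h, with Cd14 at 7.43 at 0 h and 9.26 at 3 h and Cx3cr1 at 9.97 and 8.52, and their summed signal was 13.54 at 0 h and 13.19, 13.65 and 13.30 at 1, 3 and 24 h. The B cell markers fell, 7 of 8 at 3 h with a median change of -2.07 and a summed signal that went from 12.91 to 11.07, and so did all 8 T cell markers, with a median change of -1.06 and a summed signal that went from 13.32 to 12.32. Of 8 NK cell markers, 2 were lower at 1 h, 6 at 2, 3 and 6 h and 7 at 24 h, and 1, Ncr1, was higher at 1, 2 and 6 h, with a median change of -0.70 at 24 h and a summed signal that went from 12.93 to 12.11. The share of the changes of Nos2, Ass1, Slc7a2 and Arg2 that goes with these shifts was not tested. Hepatocyte markers, measured because Arg1 and Ass1 are abundant in liver, were low, with Alb between 5.39 and 5.66. Of the 6 hepatocyte markers 3 were called higher at 1 and 3 h and 2 at 2, 6 and 24 h, with none lower and changes of at most 0.31, where 21.7%, 21.7%, 27.3%, 22.5% and 17.4% of all probe sets were higher in time order.

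The genes whose 5 changes from 0 h lay closest to those of Nos2, among 20078 of the 21406 probe sets with a symbol, were Cpm, Mmp25 and Pram1, with a root mean square difference of 0.21, 0.23 and 0.24. Cpm encodes carboxypeptidase M, a membrane enzyme that cuts arginine and lysine from the ends of peptides, and changed by 1.18 at 1 h, 2.35 at 3 h and 0.93 at 24 h. Mmp25, a membrane-bound metalloproteinase of leukocytes, changed by 1.32 at 1 h, 2.31 at 3 h and 1.05 at 24 h. Closest to Ass1 were Fam114a1 (0.14), LOC100363193 (0.14) and Gadd45a (0.16). Gadd45a, a gene of the response to stress and DNA damage, changed by 0.79 at 1 h, 1.78 at 3 h and 0.58 at 24 h. This likeness is over the authors' means at 6 time points that all genes share, and is a description only.

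The other genes of the pathway were taken from 6 lists, of which 89 of 95 symbols were measured. The lists were written from textbook knowledge, with earlier results of these data known. Over these 89 genes, 28 were called higher and 14 lower at 3 h, which is 47.2% against 46.5% of all probe sets, and 18 higher and 18 lower at 24 h, which is 40.4% against 31.2%. Both directions were thus present at each time. There were 14 genes (15.7%) called at all 5 times, near the share of 15.2% over all probe sets, 4 higher throughout (Ddah1, Asl, Nags and Slc7a11), where 6.71% of all probe sets were, and 10 lower throughout (8.43%), among them Pts, Prmt1, Slc38a1, Sms, Srm, Adh5, Irf8 and Nfkb1.

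Among 18 genes of nitric oxide synthesis and its cofactor, 4 were called higher and 5 lower at 3 h, where 27.3% of all probe sets were higher and 19.2% lower, with a median change of -0.02 beside 0.07 over all probe sets. Ddah1, which breaks down methylated arginines that inhibit the synthases, rose most, from a mean of 7.85 at 0 h to 9.36 at 3 h and 9.79 at 6 h, a change of 1.93 at 6 h (adjusted p = 3.36e-17), and stood 0.70 above 0 h at 24 h. Pts, which acts after Gch1 in making tetrahydrobiopterin, fell from 7.38 to 6.65 at 6 h (-0.73, adjusted p = 1.66e-06).

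Among arginine and urea cycle enzymes 4 of 14 measured genes were called higher and 2 lower at 3 h, against the same 27.3% and 19.2% of all probe sets, and the median change of 0.07 equalled that of all probe sets. Gatm, which uses arginine to start creatine synthesis, rose by 0.59 at 2 h (adjusted p = 1.23e-09) and was at -0.05 at 6 h. Prmt1, which makes methylated arginines in proteins, fell from 7.67 to 6.97 at 2 h (-0.70, adjusted p = 1.15e-06). Nags, whose product activates the urea cycle, was higher by 0.26 to 0.35 at all times.

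Of 13 amino acid carriers, 6 were called higher and 3 lower at 1 h, against 21.7% and 15.4% of all probe sets, and 5 higher and 1 lower at 3 h, against 27.3% and 19.2%. Slc7a11, the cystine and glutamate exchanger, had a mean of 6.18 before the occlusion and of 7.47, 8.02 and 7.42 at 3, 6 and 24 h, with a change of 1.84 at 6 h (adjusted p = 1.93e-14) of which 1.24 was left at 24 h. Slc38a1, a glutamine carrier, fell from 10.11 to 9.21 at 2 h (-0.91, adjusted p = 1.01e-08).

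In polyamine metabolism, 2 of 15 genes were called higher and 2 lower at 3 h, when 27.3% of all probe sets were higher and 19.2% lower. Azin1, which shields ornithine decarboxylase from its antizyme, rose from 9.16 to 10.11 at 6 h (0.95, adjusted p = 5.79e-12) and was at 0.47 at 24 h. The spermine synthase Sms fell from 7.56 to 6.68 at 3 h (-0.88, adjusted p = 2.20e-09), and the spermidine synthase Srm was lower by 0.25 to 0.38 at all times. Odc1, by comparison, was at 0.15 at 3 h and 0.03 at 6 h.

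For the receptor of nitric oxide and the signalling by cGMP, 2 of 9 genes were called higher and 1 lower at 3 h, beside 27.3% and 19.2% of all probe sets. Pde5a, which breaks down cGMP, was highest at 24 h, at 11.57 against 10.85 at 0 h (0.72, adjusted p = 1.34e-06), and Gucy1b3, a subunit of the soluble guanylate cyclase, was highest at 1 h (0.65, adjusted p = 2.05e-05). Adh5, which degrades the nitrosothiol of glutathione, was lower at all times, by 0.46 at 6 h (adjusted p = 1.08e-08).

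The list of receptors and factors known to act on Nos2 transcription had 4 of 20 genes called higher and 5 lower at 1 h, with a median change of 0, where 21.7% of all probe sets were higher and 15.4% lower. At 2 h 11 were higher and 3 lower, with a median change of 0.30, against 21.7% and 18.6% of all probe sets. At 3 h the count was the same and the median change 0.26, against 27.3% and 19.2%. At 6 h 11 were higher and 4 lower, against 22.5% and 19.3%. At 24 h 3 were higher and 6 lower, against 17.4% and 13.9%, and the median change was -0.10. Il1r1, the signalling receptor of interleukin 1, rose from 6.53 to 8.46 at 3 h, and its mean of 8.58 at 6 h was its highest (2.05 above 0 h, adjusted p = 4.40e-16). At 1 h its change was 0.29 (adjusted p = 0.101). Tlr2 had means of 7.94 at 0 h, 8.90 at 1 h and 9.63 at 3 h (1.69 above 0 h at 3 h, adjusted p = 8.35e-16). The part of these genes in the values of Nos2 was not tested. Irf8 fell by 1.07 at 2 h (adjusted p = 2.49e-11), and Nfkb1 was lower at all times, by 0.46 at 6 h (adjusted p = 7.22e-08).

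**Figure D4:**
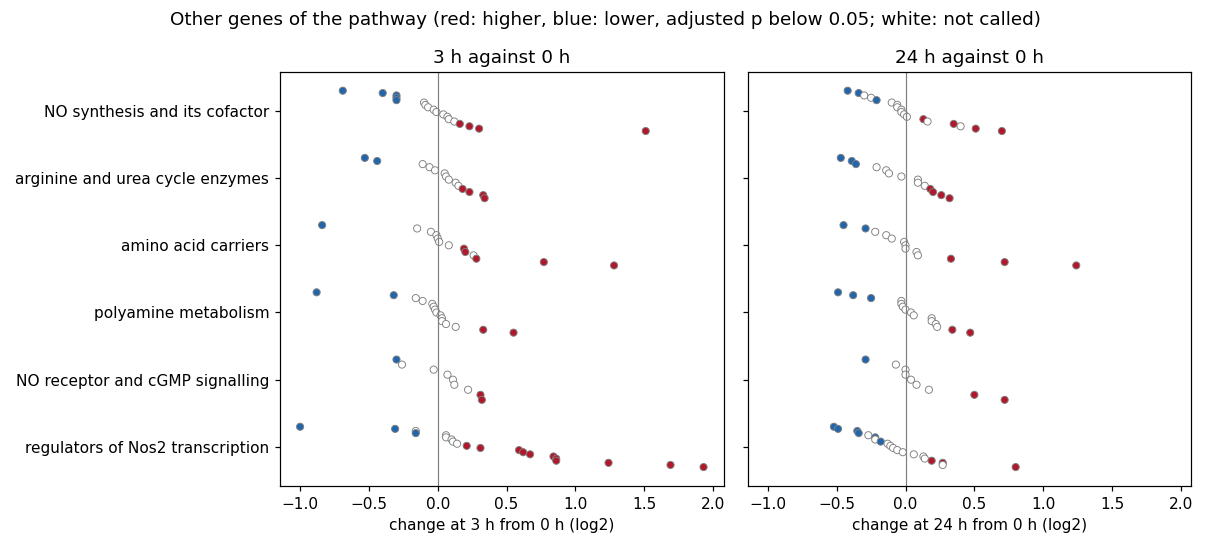
Change from 0 h on the log2 scale (horizontal axis) at 3 h (left) and 24 h (right) of the 89 other genes of the pathway, 1 point a gene, in 6 lists (vertical axis); red points were called higher, blue points lower and white points not called. In the bottom list 11 of 20 genes are red at 3 h and 3 at 24 h.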

How the data were processed

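Blood RNA was hybridized to 47 Affymetrix RaGene arrays. The deposited table holds log2 RMA values per probe set, which the authors averaged over the arrays of each time point, with SDs on the same log2 scale. RMA corrects the background and quantile normalizes the arrays. Per the file headers the annotation is on rn5, and the labels name limma. The table also holds the authors' fold changes, p-values and F-tests, which were not used, and 47 columns of single arrays, whose names were not matched to a rat and time and which were not used either.

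Groups are the time points in the sample titles. Variances were pooled over the 6 time points (41 degrees of freedom) and moderated with squeezeVar of limma 3.58.1 in R 4.3.3 (5.71 prior degrees of freedom, prior SD 0.15). Contrasts with 0 h, contrasts of neighbouring time points and the F-test were adjusted by Benjamini-Hochberg over 27596 probe sets, with a threshold of 0.05. On simulated arrays these statistics matched limma's own. The 7 or 8 arrays of a time point limit precision, and no detection call was used. The genes, lists and motifs were chosen with earlier results of these data known. Named are the 9 genes, in each list the 2 called genes with the largest change and those called at all 5 times, and the 3 symbols closest to each of the 9 genes with a change of at least 1. Nos1 and Gchfr, named after their values were seen, are marked. Single markers of cell types are named outside this rule, some by their values, and are not marked. Some genes that this rule names are not reported here. Alternatives were the scaling of the means, a filter on the lowest 25% of probe sets, the prior, the spread used, the 24 h samples and the F-test threshold.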

Additional observations from a re-analysis of the deposited data

How the results depend on the processing

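No paired analysis was possible because the columns of single arrays were not matched to rats, and each symbol had 1 probe set, so no other probe set was tried. Most values kept their direction and their side of the threshold: of the changes of single genes under the alternatives 523 did, 9 lost their call, 14 gained one and 3 changed sign. These 3 were small and not called: Slc7a1 at 1 h became -0.04 and Nos3 at 2 h -0.02 after centring, and Gch1 at 6 h became 0.01 after quantile normalization of the means. The number of the 9 genes called at 24 h ranged from 4 after quantile normalization to 6. From 1 to 2 h it was 4 with the spread of these times alone, and from 2 to 3 h it was 0 after centring and 0 with the ordinary variance. By the F-test it was 4 at a p below 5e-07 and 7 without the 24 h samples. The counts of other pathway genes stayed within 1.5 times the main count under every alternative run. Some alternatives were chosen after seeing the data: leaving out the 24 h samples, other priors and the spread of the 2 times alone for neighbouring time points, and all but centring and the filter for the pathway lists.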
